A study of Caenorhabditis elegans with 2 samples.

Results

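The mir-51 family of the nematode Caenorhabditis elegans consists of 6 microRNA (miRNA) genes, mir-51, mir-52, mir-53, mir-54, mir-55 and mir-56, described here across peak lists of the homeodomain protein MLS-2. They were taken by name from the 261 miRNA genes that Ensembl annotates on the nuclear chromosomes, and all 6 were found. A miRNA is cut from a hairpin in a longer transcript, and it guides an Argonaute protein to messenger RNAs that pair with its seed, bases 2 to 8. Genes with the same seed are grouped as a family. In C. elegans, loss of the whole mir-51 family is lethal in embryos, with a pharynx that fails to stay attached to the mouth, and the cadherin gene cdh-3 has been described as a target. MLS-2 is an HMX/NKX5-type homeodomain transcription factor with known roles in glia, neurons and the postembryonic mesoderm.

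The data came from chromatin immunoprecipitation sequencing (ChIP-seq) in 1 group of 2 biological replicates. The worms were strain OP645, genotype unc-119(tm4063) III; wgIs645, an integrated transgene that adds a C-terminal GFP-FLAG tag to MLS-2. Whole embryos of mixed stage and pooled sex were collected 2 h after synchronization by bleaching eggs, and tagged protein was pulled down with an anti-GFP antibody after sonication. The labels name 1 strain and do not say which promoter drives the transgene, peak lists of whole embryos hold no marker of a cell type, and no control library was analysed here. The authors' optimal list held 1925 peaks, and it was identical with the 1925 highest-scoring regions of the pooled list. The pooled list and the list of each replicate held 30000 regions each, background included. The score is the authors' signal value. Its scaling is not stated, so it ranks regions within 1 list, with rank 1 the strongest. The depth of the libraries is unknown. A replicate rank of 1925 or better is called within the top of that replicate's list.

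The seed ACCCGUA is what ties the members together, and the mature sequences show it. They were read from the WBcel235 genome at the RefSeq positions, 5′ to 3′, and the capitals mark the seed.
miR-51-5p (chrIV:11026074-11026096, minus strand): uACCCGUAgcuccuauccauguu
miR-52-5p (chrIV:14034024-14034047, plus strand): cACCCGUAcauauguuuccgugcu
miR-53-5p (chrIV:11027653-11027676, minus strand): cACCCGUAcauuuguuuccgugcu
miR-54-3p (chrX:13145011-13145034, minus strand): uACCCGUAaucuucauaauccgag
miR-55-3p (chrX:13144842-13144864, minus strand): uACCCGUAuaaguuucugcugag
miR-56-3p (chrX:13144706-13144727, minus strand): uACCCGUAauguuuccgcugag
The seed lies on the 5p arm in mir-51, mir-52 and mir-53 and on the 3p arm in mir-54, mir-55 and mir-56. Of 257 annotated miRNA genes with a RefSeq mature sequence, 6 carried this seed on either arm, and 0 of them lay outside the family. Counted from the 5′ end, mir-52 and mir-53 were identical at 23 of 24 bases and differed by A12U. Among the X-linked members, mir-54 and mir-56 matched at 14 of 22 bases, whereas mir-54 and mir-55 matched at 9 of 23.

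The 6 genes lie at 3 loci. On chromosome IV, mir-51 (WBGene00003279, chrIV:11026013-11026112) and mir-53 (WBGene00003281, chrIV:11027593-11027691) are both on the minus strand, 1480 bp apart, with mir-53 upstream. They sit between the 3′ ends of alh-3, an aldehyde dehydrogenase family gene, and hrg-5, a member of the heme-responsive gene family. Far from them on the same chromosome, mir-52 (WBGene00003280, chrIV:14034008-14034107) is on the plus strand, with no protein-coding gene within 2 kb of its summits. On chromosome X, mir-54 (WBGene00003282, chrX:13144996-13145094), mir-55 (WBGene00003283, chrX:13144827-13144924) and mir-56 (WBGene00003284, chrX:13144691-13144787) form a cluster on the minus strand with gaps of 71 and 39 bp. The cluster lies in an intron of F09A5.3, a protein-coding gene on the plus strand, and an annotated antisense miRNA gene, mir-55b, overlaps mir-55. All coordinates are 1-based in ce11 (WBcel235).

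Every member had an optimal summit within 2 kb, in 6 of 6 genes, and the same held for the top of each replicate's list. Over all annotated miRNA genes the share was 64 of 261 (24.5%) in the optimal list, 26.4% in replicate 1 and 19.2% in replicate 2. It was 58 of 255 (22.7%) for miRNA genes outside the family. For protein-coding genes it was 12.1%, counted within 2 kb of the whole gene and so over a longer stretch than around a hairpin. The members were chosen with these lists in view, so these counts describe them and were not tested. Because neighbours share peaks, the 6 genes rest on 9 distinct optimal summits at 3 loci, with 3 summits at each locus. Within 250 bp of another optimal summit lay 4 of the 9, as did 196 of all 1925 (10.2%). Of these 9 summits, 7 lay upstream of the hairpin nearest to them, and all 9 carried the highest −log10 q in the deposited list, as did 1772 of the 1925 optimal peaks. In the longer lists, which hold background regions, a summit within 2 kb was common, at 67.4% of miRNA genes in the pooled list, 72.4% in replicate 1 and 70.1% in replicate 2. A hit there that is outside the top therefore says little about a member.

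**Figure D1:**
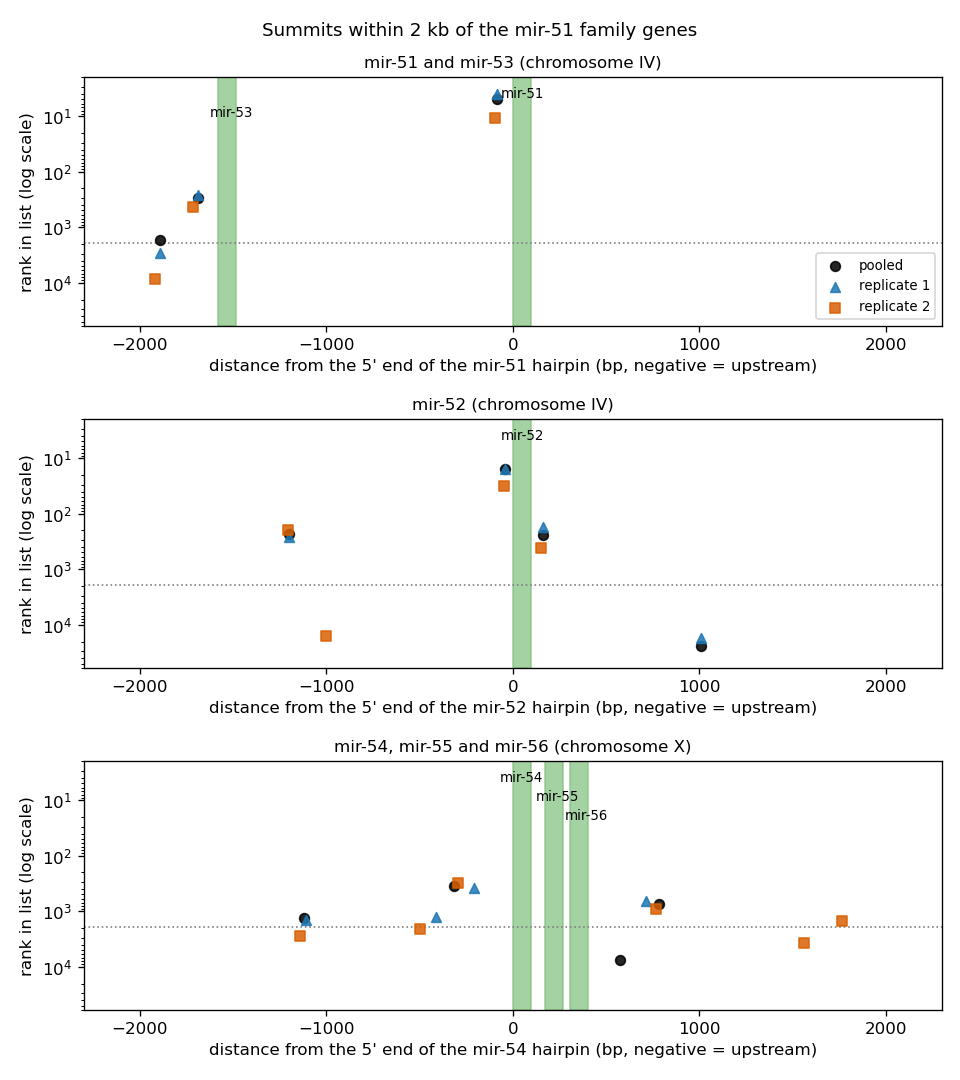
Rank in the pooled list and in each replicate's list (vertical log axis, strongest at the top) against distance in bp from the 5′ end of the mir-51, mir-52 or mir-54 hairpin, with a panel for each locus, hairpins as green bars, summits within 2 kb of a member as points and a dotted line at rank 1925. The strongest summits sit 85 bp upstream of mir-51 and 41 bp upstream of mir-52.

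The strongest peak of the family covered mir-51. It spanned chrIV:11025811-11026486, with a signal of 1970 and rank 5 in the optimal list, and its summit lay 85 bp upstream of the 5′ end of the hairpin. In replicate 1 the summit lay 87 bp upstream with rank 4, and in replicate 2 it lay 94 bp upstream with rank 11. The replicates thus placed it 7 bp apart, and the peak covered the whole hairpin. The summit fell in the exon of F36H1.17, a noncoding RNA gene on the same strand, 22 bp from its 5′ end. The width of 676 bp was reached or passed by 15 of the 1925 optimal peaks, this peak included.

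The summits at mir-53 were weaker than the mir-51 summit in all lists. The summit nearest to its hairpin lay 108 bp upstream, with a signal of 486 and rank 302, in a peak of 304 bp (chrIV:11027688-11027991). Replicate 1 had it 109 bp upstream at rank 265, and replicate 2 had it 135 bp upstream at rank 430. A further optimal summit lay 312 bp upstream, with a signal of 226 and rank 1694, near the end of the list. It ranked 2849 in replicate 1 and 8365 in replicate 2, outside the top of either, so it rests on the pooled list. Since the 2 kb window of mir-53 also takes in the mir-51 peak, the strongest summit counted for mir-53 is that of mir-51, 1494 bp downstream of the mir-53 5′ end. For the same reason mir-51 had the mir-53 summits in its window, the farthest of them 1891 bp away and the last inside the 2 kb limit. Beyond that limit, the nearest summits of the replicate and pooled lists at the X cluster lay 2160 bp upstream of mir-54 in replicate 2, at rank 13126, 2236 bp upstream in replicate 1, at rank 17964, and 2237 bp upstream in the pooled list, at rank 15595.

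The peak at mir-52 was among the widest of the optimal list. It spanned 1074 bp (chrIV:14033413-14034486), the greatest width in the list, and the file lists that interval 2 times with a summit each. The stronger summit lay 41 bp upstream of the hairpin, with a signal of 1349 and rank 16. Replicate 1 placed it at the same base with rank 16, and replicate 2 placed it 49 bp upstream with rank 32. The other summit in the interval lay 160 bp from the 5′ end, past the 3′ end of the hairpin, with a signal of 534 and rank 240. Its ranks were 177 in replicate 1 and 407 in replicate 2. A separate peak (chrIV:14032563-14032973) had its summit 1197 bp upstream, with a signal of 548 and rank 232, against ranks of 266 in replicate 1 and 195 in replicate 2. The main summit fell in an exon of an annotated noncoding RNA gene on each strand, and 6 piRNA genes lay within 2 kb of it.

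The X-linked cluster had weaker peaks than mir-51 and mir-52, and its main peak was placed less exactly. That peak (chrX:13144995-13145585) was 591 bp wide and covered the mir-54 hairpin. Its summit, with a signal of 454 and rank 355, lay 313 bp upstream of mir-54, 483 bp upstream of mir-55 and 620 bp upstream of mir-56. The 5′ end of F09A5.11, a noncoding RNA gene on the minus strand, was nearer than any hairpin, 136 bp from the summit. Each replicate had 2 summits there. Those of replicate 2 lay 294 bp upstream of mir-54 at rank 310 and 497 bp upstream at rank 2118, the latter outside its top. Those of replicate 1 lay 208 bp upstream at rank 382 and 411 bp upstream at rank 1260. The summits nearest to the optimal one lay 117 bp apart in the replicates (the weaker of the replicate 1 summits is the one plotted in the figure of ranks), the largest gap of the 9 family summits, whose median was 26 bp. Across the 1810 optimal summits found within 100 bp in both replicate lists the median gap was 25 bp, with quartiles of 8 and 51 bp. The cluster had an optimal summit 474 bp downstream of the mir-56 5′ end, with a signal of 324 and ranks of 754 in the optimal list, 644 in replicate 1 and 914 in replicate 2. Another lay 1121 bp upstream of mir-54, with a signal of 251 and ranks of 1327, 1428 and 2759 in the same lists, the last outside the top of replicate 2. Replicate 2 alone had a further summit within its top, 1457 bp downstream of the mir-56 5′ end at rank 1524. No optimal summit was nearest to mir-55. All 3 optimal summits of the cluster lay in an intron of F09A5.3, between 2712 and 4614 bp from its 5′ end.

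**Figure D2:**
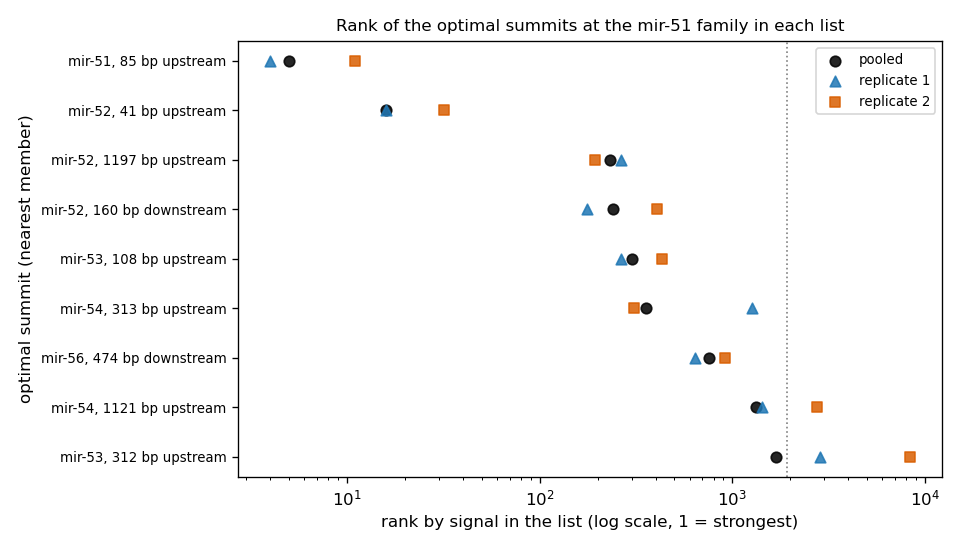
Rank of each of the 9 optimal summits (rows, named by the nearest member and the distance from its 5′ end) in the pooled list and, for the summit nearest to it, in each replicate's list, on a log axis with a dotted line at rank 1925. The mir-51 summit and the main mir-52 summit rank 32 or better in all lists, whereas the summit 312 bp upstream of mir-53 is past the line in both replicates.

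By the strongest summit nearest to each hairpin, the order in the optimal list was mir-51, mir-52, mir-53, mir-54 and mir-56, with none for mir-55. The main mir-51 summit ranked above the main mir-52 summit in the optimal list and in each replicate. The next members followed at a distance, with ranks of 32 or better for mir-52 and 265 or worse for the mir-53 and mir-54 summits. The mir-53 and mir-54 summits could not be ordered, since mir-53 ranked higher in replicate 1 (265 against 382) and lower in replicate 2 (430 against 310). Of the 9 summits, 8 were within the top of replicate 1, 7 within the top of replicate 2 and 7 within the top of both.

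The bases at the summits differ from locus to locus. The windows below are the 201 bp centred on the optimal summit, read from the WBcel235 genome 5′ to 3′ on the strand of the nearest hairpin. They are the main summit of each of the 4 hairpins with a summit just upstream, and the mir-54 summit that carries the motif CAATTAA. Capitals mark matches, on either strand, to 10 short motifs. These were CAATTAA, the one used here for the HMX family. Its shorter form CAATTA overlaps it at every match of the longer form. The homeodomain core TAATTA, the repeat GAGAGA, the GC-rich word GGGCGG and the GATA-factor core TGATAA were searched too. The others were E-boxes, which are read by basic helix-loop-helix proteins, in the form CAGCTG, in the palindromic form CACGTG, in the form CACCTG that Snail-type zinc fingers also read, and in the form CAAGTG.
mir-51, 85 bp upstream (chrIV:11026097-11026297, minus strand): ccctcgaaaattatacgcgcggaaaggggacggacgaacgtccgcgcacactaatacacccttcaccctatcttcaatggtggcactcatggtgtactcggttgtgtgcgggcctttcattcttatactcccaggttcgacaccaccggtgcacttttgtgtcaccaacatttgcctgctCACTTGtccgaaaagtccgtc
mir-52, 41 bp upstream (chrIV:14033867-14034067, plus strand): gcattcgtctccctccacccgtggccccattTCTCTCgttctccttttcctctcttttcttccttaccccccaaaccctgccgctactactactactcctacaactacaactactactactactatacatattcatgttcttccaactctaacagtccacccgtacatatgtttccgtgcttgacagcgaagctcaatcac
mir-53, 108 bp upstream (chrIV:11027699-11027899, minus strand): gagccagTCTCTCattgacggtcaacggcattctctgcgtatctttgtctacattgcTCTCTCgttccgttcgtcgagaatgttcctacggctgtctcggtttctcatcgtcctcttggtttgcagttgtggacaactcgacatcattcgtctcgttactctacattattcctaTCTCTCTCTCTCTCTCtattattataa
mir-54, 313 bp upstream (chrX:13145307-13145507, minus strand): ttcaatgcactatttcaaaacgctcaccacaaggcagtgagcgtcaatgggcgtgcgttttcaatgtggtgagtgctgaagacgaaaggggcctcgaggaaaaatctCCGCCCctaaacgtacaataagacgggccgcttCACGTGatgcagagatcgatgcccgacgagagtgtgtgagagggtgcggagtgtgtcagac
mir-54, 1121 bp upstream (chrX:13146115-13146315, minus strand): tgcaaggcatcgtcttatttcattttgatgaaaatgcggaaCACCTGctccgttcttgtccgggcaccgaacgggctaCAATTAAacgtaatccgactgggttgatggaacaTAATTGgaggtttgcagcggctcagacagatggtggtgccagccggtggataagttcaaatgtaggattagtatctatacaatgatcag
The mir-52 window takes in 60 bases of its hairpin and the mir-51 window takes in 16, while the other 3 hold none.

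Of the motifs searched, CAATTAA was found at 1 family summit, and GAGAGA was found most often. CAATTAA lay within 150 bp of 1 of the 9 family summits, that 1121 bp upstream of mir-54, against 6.81% of all 1925 optimal summits in the same 301 bp. TAATTA lay at 1 of 9, that 312 bp upstream of mir-53, against 12.4% of all optimal summits. Those are the family summits with ranks of 1327 and 1694. GAGAGA was within 150 bp of 6 of the 9, against 49.6% of all, and within 50 bp of 2 of the 9, against 24.9%. The 150 bp windows of the mir-53 summits overlap. The only GAGAGA match of the summit 312 bp upstream is also counted for the summit 108 bp upstream. GGGCGG lay at 2 of 9, against 17.8%, one 1197 bp upstream of mir-52 and the other 313 bp upstream of mir-54. CAAGTG lay at 2 of 9, against 14.4% of all. It is listed with the E-boxes by its letters alone, and whether HMX proteins also read it was not tested here. It was 82 bp from the mir-51 summit and 116 bp from the summit 1197 bp upstream of mir-52. The other E-boxes were at 1 of 9 each, where CACGTG lay at 5.35% of all, CACCTG at 8.62% and CAGCTG at 8.99%. The core CAATTA lay at the same summit as CAATTAA, against 17.7% of all, and TGATAA lay at 0 of 9, against 10.4% of all. With 9 summits at 3 loci these counts are a description. A match in a window is not a bound site, and a missing match says only that these letters are not there.

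The G and C content at the family summits lay on both sides of the median of the optimal list. Within 100 bp the family median was 47.3%, from 36.8% to 59.7%, and the median of all 1925 optimal summits was 47.3%, with quartiles of 42.3% and 51.2%. The mir-51 summit had 52.7% G and C, the main mir-52 summit 47.3%, the mir-53 summit nearest its hairpin 45.3% and the main mir-54 summit 53.2%. The extremes were 36.8% at 312 bp upstream of mir-53 and 59.7% downstream of mir-56, above 97.0% of the optimal summits.

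**Figure D3:**
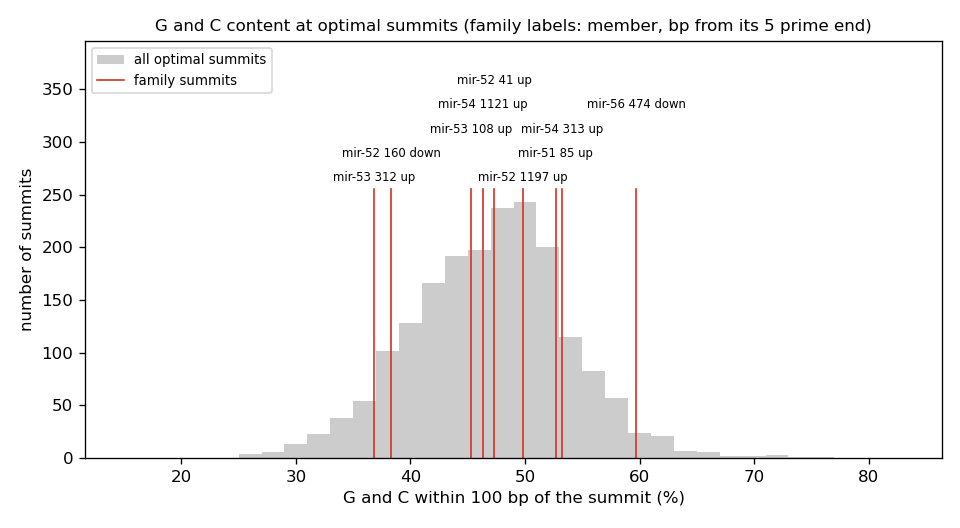
Histogram of G and C content within 100 bp of all 1925 optimal summits (grey, number of summits per 2% bin), with a red line for each of the 9 family summits, labelled by member and distance in bp from its 5′ end. The family lines run from 36.8% to 59.7%, on both sides of the overall median of 47.3%.

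Set beside the other miRNA genes, the mir-51 and mir-52 peaks stood at the top. Among all miRNA genes with an optimal summit within 2 kb, 3 had one of rank 20 or better, and these were mir-51, mir-53 (through the shared peak) and mir-52. Of the 58 others, 0 reached that rank and 7 had a summit at least as strong as the main peak of the X cluster, among them mir-55b through that peak itself. Their median rank was 968.5. The 6 members had ranks of 5, 5, 16, 355, 355 and 355 with shared summits counted for each gene. Their median of 185.5 is thus a rank that no member holds. The members were chosen with these lists in view, so their ranks describe them and were not tested against the others. The 5 other miRNA genes with the strongest summits were mir-237, a gene of the lin-4 type (rank 139, 1995 bp from the hairpin), mir-1819 and mir-2212 (both rank 152, through a shared summit), mir-62 (rank 260, 459 bp) and mir-90 (rank 282, 279 bp). At least 3 optimal summits within 2 kb were found at the 6 members and at 2 other genes, mir-35 and the antisense mir-55b, together 8 of 261 (3.07%). With genes less than 2 kb apart merged, a count chosen after the data were seen, 41 of 214 miRNA loci (19.2%) had an optimal summit. Of those, 4 had 3 summits, the 3 family loci and the locus of mir-35 to mir-41. At the mir-51 and mir-53 locus and at mir-52, the 3 include a pair within 250 bp of each other.

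**Figure D4:**
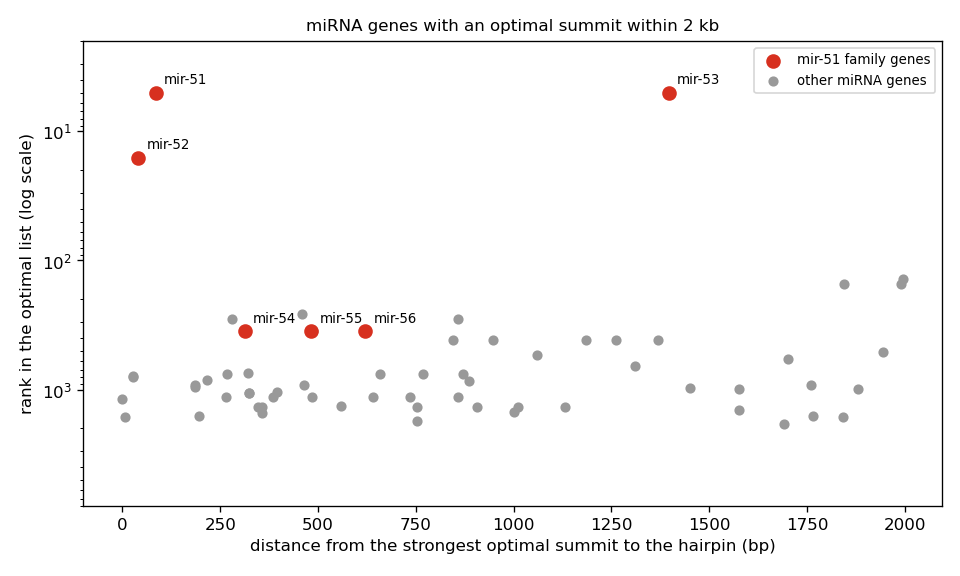
Rank of the strongest optimal summit within 2 kb (vertical log axis, strongest at the top) against its distance in bp from the hairpin, for the 6 mir-51 family genes (red, named) and the 58 other miRNA genes with such a summit (grey). The family points for mir-51, mir-53 and mir-52 lie at ranks 5, 5 and 16, above every grey point, the highest of which is at rank 139.

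The members most like other miRNA genes in rank were those of the X cluster. Likeness was the sum, over the pooled list and both replicate lists, of the absolute difference in log10 rank of the strongest summit within 2 kb, compared over 158 miRNA genes with a summit in all 3 lists. Next to mir-54, mir-55 and mir-56 stood mir-55b, which has the same summits (a sum of 0), then mir-90 and mir-354, both at 0.25. For mir-52 the nearest were mir-237 at 2.51 and mir-1819 and mir-2212 at 2.60. For mir-51 and mir-53 the same 3 genes were at 4.08 for mir-237 and 4.17 for both others.

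Grouped by seed, the other embryonic miRNA family also had a summit at every gene, at weaker ranks. The mir-35 family, which C. elegans embryos also need, had an optimal summit within 2 kb at 8 of 8 genes, mir-35 to mir-42, at 2 loci. Its best rank was 509, for a summit 1943 bp upstream of mir-35, and mir-36 to mir-41 shared a summit of rank 1142. The genes of the let-7 and mir-58 families were chosen by gene name and not by seed, so their counts are not those of a seed group. Of the let-7 family, which times late larval development, 1 of 7 genes had an optimal summit. That gene was let-7 itself, with a summit of rank 998 lying 1880 bp upstream. Of the mir-58 family, abundant miRNAs related to bantam of Drosophila, 3 of 7 matched genes had 1, with a best rank of 753, and mir-1834 was not matched. The share over all annotated miRNA genes was 64 of 261 (24.5%). Among the 16 seeds carried by 3 or more annotated genes, 2 had an optimal summit at every gene, ACCCGUA of mir-51 to mir-56 and CACCGGG of mir-35 to mir-42. Neighbours share summits in both groups, and no test was made of the difference between families.

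Protein-coding genes of the miRNA pathway, together with the family's described target cdh-3, were looked at in the same list. Of these 26 genes, 24 were matched, and ntl-1 and hpo-24 were not. An optimal summit lay in the promoter window, from 1000 bp upstream to 100 bp downstream of a 5′ end, at 8 of the 24, against 5.64% of all protein-coding genes. With 500 bp upstream it was 3 of the 24, vig-1, lin-28 and pab-2, against 4.21% of all protein-coding genes. The 8 found with 1000 bp upstream included alg-5, an Argonaute gene (836 bp upstream, signal 752, rank 96), in a peak it shares with the histone genes his-67 and his-68. Also among these 8 was ain-1, a GW182-type partner of Argonaute (866 bp upstream, signal 738, rank 103). The summit at vig-1, a RISC component, lay 421 bp upstream with rank 234, and that at lin-28, which blocks let-7 maturation, lay 9 bp upstream with rank 314. The others were nhl-2, a TRIM-NHL cofactor (rank 331, shared with tag-340), the miRNA Argonaute genes alg-1 (rank 859) and alg-2 (rank 1408), and pab-2, a poly(A)-binding protein gene (rank 1853). Of these 8, alg-2 ranked 2090 in replicate 2, outside its top. The window was empty at drsh-1, pash-1 and dcr-1, which encode Drosha, its partner and Dicer, with the nearest optimal summits 2187, 5517 and 10827 bp from a 5′ end. For cdh-3 that distance was 24753 bp.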

How the data were processed

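The authors' ce11 lists were used: the optimal peaks thresholded by the irreproducible discovery rate (IDR), the pooled regions and the regions of each of 2 replicates. The deposited file descriptions name as inputs the aligned reads of each replicate and a further file that is also an input of their control-normalized tracks. Which programs aligned the reads and called peaks, and the IDR cut-off, is not given in the sources used here. The deposited signal per region served for ranks within a list, and its scaling is unknown. The deposited −log10 q was tied at its maximum in 1772 optimal peaks. Depth is not in the files, so no interval on a signal can be given. The ce10 lists were not used.

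A summit is the start of the interval plus the deposited summit offset. Distances run from the hairpin in the Ensembl 115 annotation (WBcel235, which is ce11) and were counted within 2 kb. For the share of protein-coding genes within 2 kb they run from the whole annotated gene. Every region end on the nuclear chromosomes lay inside the WBcel235 lengths. RefSeq gave the mature positions, and sequences were read from the RefSeq WBcel235 genome. Functions were tested on planted summits and motifs. Python 3.11.15, pandas 2.3.3, numpy 2.4.6 and matplotlib 3.10.9 were used. No test was made: there was 1 group, and the members and lists were chosen with earlier results of these data known. Genes were named by rule: all members, annotated genes within 2 kb of a family summit (noncoding RNA and piRNA genes mostly as counts), the 5 other miRNA genes with the strongest summit, for each member the 3 most alike in rank, and pathway genes with a promoter summit. Any further gene was picked with its values known. Alternatives were distances of 500, 1000 and 5000 bp, the 962 strongest peaks, each replicate alone, interval overlap, other motif and G and C windows and other promoter lengths.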

Additional observations from a re-analysis of the deposited data

How the results depend on the processing

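All 6 members had a summit at 500, 1000 and 5000 bp, among the 962 strongest peaks, with either replicate left out and by interval overlap. With each summit given to the nearest member, a choice made after the data were seen, 5 of 6 had their own and mir-55 had none. The share of all miRNA genes was 13.0% at 500 bp, 16.9% at 1000 bp, 32.2% at 5000 bp and 13.4% among the 962 strongest peaks. By interval overlap it was 24.5%, and it ran from 19.2% to 26.4% with 1 replicate left out. The count of miRNA pathway genes fell to 3 with 500 bp upstream, against 8 with 1000 bp. The shares of all protein-coding genes at these lengths were 4.21% and 5.64%. The count was 9 with 2000 bp and ran from 7 to 8 with 1 replicate left out. For those settings the share of all protein-coding genes was not counted, so these counts have no background. GAGAGA matches fell to 2 of 9 summits at 50 bp, against 6 at 150 bp. The median G and C content of the family summits was 50.5% at 50 bp and 48.2% at 150 bp. Over all optimal summits it was 49.5% at 50 bp and 45.2% at 150 bp. Of the 24 rank alternatives of single members, 7 moved by more than the standard deviation of the 2 replicate values. Of the 18 offset alternatives 12 did. Each replicate's value is both an alternative and part of that spread, and the pooled ranks equal the optimal ones by construction. Neighbours also share peaks, so these counts do not measure how stable a rank or an offset is. Ranking by −log10 q left ties at the top, and the other score columns were constant. No paired analysis was possible because there was 1 group and no test. Unknown depth and 2 replicates limit what a rank near the end of the optimal list shows, as at 312 bp upstream of mir-53.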
